A study of Mus musculus with 3 samples.

Results

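Rab GTPases are the small GTP-binding proteins that give membranes their identity and direct vesicle traffic. The genes described here are those with a single symbol in the array's platform annotation made of "Rab", a number and at most a letter and a digit. They were 55 of the 19057 genes read, on 58 of 26730 probe sets. The 3 arrays hold total RNA from 3 biological repeats of R1, a line of mouse embryonic stem (ES) cells from strain 129, hybridised to an Affymetrix whole-transcript array. They form 1 group. No treatment, genotype, age or culture condition is given in the labels, and there is no second condition. The values therefore address which Rab genes R1 cells gave signal for, and how even the repeats were.

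A Rab protein switches between a GDP-bound form, held in the cytosol by a chaperone called GDI, and a GTP-bound form that sits on a membrane and recruits effectors such as tethers and motors. Exchange factors load GTP, and proteins with a TBC domain speed its hydrolysis. Some Rabs serve routes that every cell uses, from the endoplasmic reticulum (ER) through the Golgi and endosomes. Others are known chiefly from specialised cells such as neurons, secretory cells, polarised epithelia and melanocytes.

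Values are log2 intensities of the deposited probe sets, given for repeats 1, 2 and 3 in that order or as mean ± SD (n = 3). Signal was judged against 2 limits set on each array. The lower limit was the 95th percentile of 1184 receptor genes of smell and the vomeronasal organ, at log2 4.72, 4.60 and 4.60. The higher limit was the 95th percentile of 155 genes of other families not known for a role in ES cells (keratin-associated proteins, defensins, taste receptors and cornified envelope genes), at 6.22, 6.31 and 6.23. A gene between the limits gave signal that is not shown to be expression, and a gene below the lower limit was not shown to be silent. A level depends on the probes that read it, and no Rab gene is ranked against another. Whether a probe set also reads a close paralog was not tested. Markers of the labelled cell type were read as well: all 11 measured ES cell markers lay above both limits on all 3 arrays, with Pou5f1 at 11.77 ± 0.12, Sox2 at 10.78 ± 0.017, Nanog at 11.00 ± 0.20 and Sall4 at 9.91 ± 0.12. Of 9 measured blood markers, 3 passed the lower limit on all arrays, and Laptm5 (8.98 ± 0.23) and Coro1a (6.42 ± 0.037) also the higher one. The pan-leukocyte marker Ptprc (3.70 ± 0.030) was below the lower limit on every array. The arrays' median intensities were 47.8, 46.7 and 46.8, and their number limits the precision of every value.

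Of the 55 Rab genes, 49 (89.1%) lay above the lower limit on all 3 arrays, where 72.1% of 17718 genes outside the silent families did so. Of these, 27 (49.1%) were also above the higher limit on all 3 arrays, against 42.1% of genes. The other 22 (40.0%) fell between the limits, against 29.9%. Rab37 passed the lower limit on 2 arrays and Rab3c, Rab7b, Rab27b, Rab39 and Rab42 on none. The 27 well-detected genes included members of each route from the ER to the cell surface: Rab1a and Rab6a, Rab5a to Rab5c, Rab11a, Rab7, Rab8a and Rab10. None of the 4 Rab3 genes was above the higher limit on all arrays. The share above the higher limit was close to that of all genes, and is not particular to Rab genes. With the lower limit raised to the 99th percentile of receptor genes, 36 Rab genes passed on all 3 arrays, against 55.5% of genes.

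**Figure D1:**
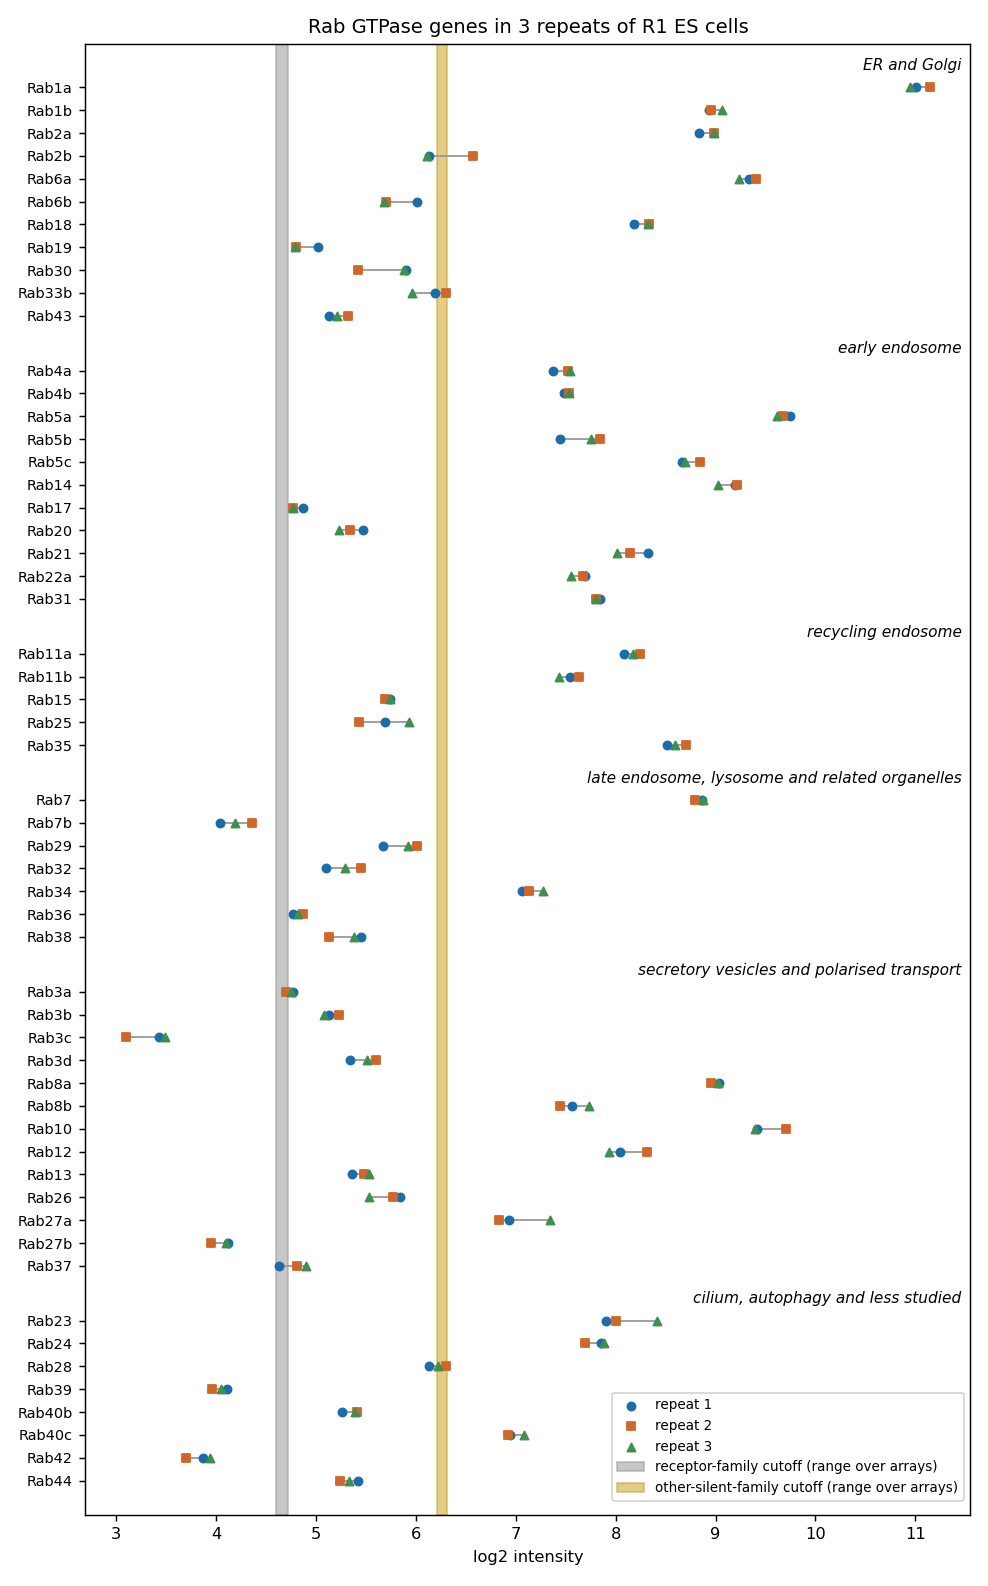
Log2 intensity (horizontal axis) of each of the 55 Rab genes in repeats 1, 2 and 3 (points joined by a line over their range), grouped by the route the protein is known for, with bands for the lower and higher limits over the 3 arrays. Rab1a lies near 11 and Rab3c near 3.3, and the 3 repeats of a gene span at most 0.51.

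The promoters of the Rab genes are shown first, because their CG and GC content differed between the classes of signal. Median GC content was 64.2% in Rab genes above both limits, 58.3% between them and 51.7% in the 3 not above the lower limit on all arrays. Over all genes outside the silent families the medians were 62.0%, 59.5% and 51.0%, so this order is not particular to Rab genes. Promoters rich in CG dinucleotides are typical of widely expressed genes. RefSeq promoter sequences of build GRCm38.p6, from 250 bases before to 50 after an annotated start, were found for 44 of the 55 genes. Of these, 8 had more than 1 promoter. Contents and ratios of such genes are means over their promoters, and TATAAA was counted if any of them held it. The ratio of CG observed to that expected from C and G content exceeded 0.6 in 22 of 24 Rab genes above both limits (91.7%), in 11 of 17 between them (64.7%) and in 1 of 3 not above the lower limit on all arrays. The same shares over all genes outside the silent families were 81.8%, 50.2% and 19.4%. The Rab genes thus followed the order of genes at large. Median ratios were 0.81, 0.69 and 0.59 in the 3 classes of Rab genes. Over the 13714 genes outside the silent families with a promoter and a value they were 0.81, 0.60 and 0.29. Exceptions ran both ways. Rab27a, above both limits, had a ratio of 0.47, the mean of 2 promoters. Rab6b, between the limits, had 1.02 and Rab39, below the lower limit, 0.81. The letters TATAAA, read on both strands, occurred in the promoters of 3 of the 44 genes, Rab3b, Rab7 and Rab42, and in 11.4% of the 13714 genes outside the silent families. Over all 32851 promoters in the table the share was 13.6%.

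A few of these promoters show the range. Rab6a has the highest ratio (1.18) and Rab17 the lowest (0.22), and Rab4b (0.82) and Rab3c (0.59) lie nearest the medians of the classes above both limits and below the lower limit. The 250 bases before an annotated start are printed 5′ to 3′, with every CG in capitals. The starts used for Rab6a, Rab17 and Rab3c lie inside the annotated span of the gene, so other starts upstream are not covered. That of Rab6a lies close to the edge of the span.
Rab6a, chr7:100607336-100607585, plus strand: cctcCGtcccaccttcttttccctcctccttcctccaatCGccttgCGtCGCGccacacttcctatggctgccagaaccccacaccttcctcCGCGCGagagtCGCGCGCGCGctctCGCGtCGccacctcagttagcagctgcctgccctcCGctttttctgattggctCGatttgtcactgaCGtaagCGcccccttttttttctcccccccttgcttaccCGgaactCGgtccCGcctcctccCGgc
Rab4b, chr7:27178884-27179133, minus strand: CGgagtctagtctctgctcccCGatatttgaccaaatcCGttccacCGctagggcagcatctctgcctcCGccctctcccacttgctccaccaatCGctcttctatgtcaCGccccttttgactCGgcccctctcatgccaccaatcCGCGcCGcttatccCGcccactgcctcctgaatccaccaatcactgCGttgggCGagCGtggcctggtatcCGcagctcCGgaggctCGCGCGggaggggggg
Rab3c, chr13:110280207-110280456, minus strand: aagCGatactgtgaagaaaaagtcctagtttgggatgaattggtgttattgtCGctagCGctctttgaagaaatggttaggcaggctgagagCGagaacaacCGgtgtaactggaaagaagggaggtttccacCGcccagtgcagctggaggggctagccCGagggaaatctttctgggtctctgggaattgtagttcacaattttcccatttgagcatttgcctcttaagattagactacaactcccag
Rab17, chr1:90967668-90967917, minus strand: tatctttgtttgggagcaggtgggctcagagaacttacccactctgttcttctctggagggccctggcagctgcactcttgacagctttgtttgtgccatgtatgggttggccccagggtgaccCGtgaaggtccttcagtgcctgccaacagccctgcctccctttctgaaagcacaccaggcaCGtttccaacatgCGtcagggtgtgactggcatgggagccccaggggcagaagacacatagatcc
These stretches hold 24, 20, 7 and 3 CG dinucleotides. Rab6a read 9.33 ± 0.088 and Rab4b 7.52 ± 0.029, both above the 2 limits. Rab17 read 4.80 ± 0.058, just over the lower limit, and Rab3c 3.34 ± 0.21, under it.

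**Figure D2:**
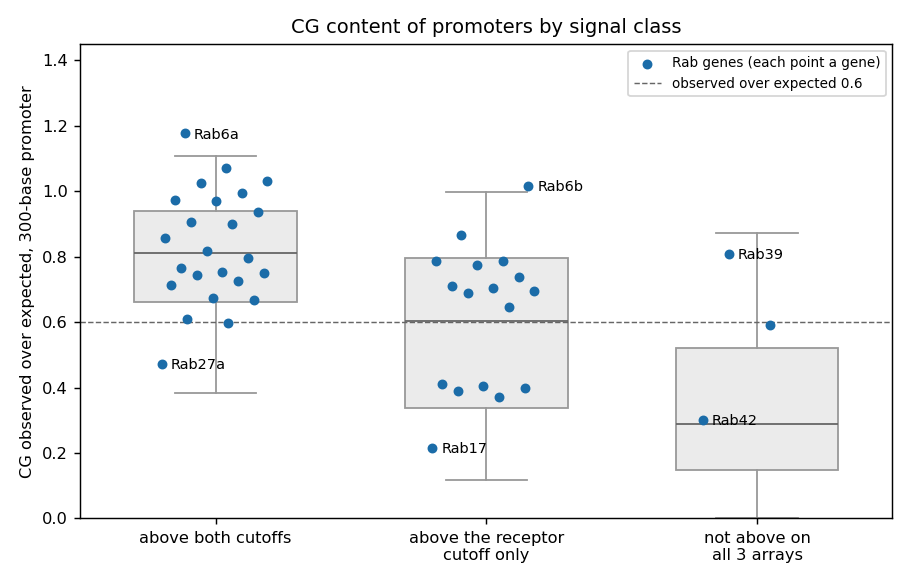
Ratio of CG observed to expected in the 300-base promoter (vertical axis) for 44 Rab genes (points) in the 3 classes of signal, with boxes for all genes outside the silent families (quartiles and median, whiskers at the 5th and 95th percentiles). In the class above both limits 22 of 24 Rab genes lie over the dashed line at 0.6. Genes with several promoters are shown at their mean.

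All 11 Rab genes of the ER and Golgi passed the lower limit on all 3 arrays, and 5 passed the higher one. Over genes outside the silent families the shares were 72.1% and 42.1%. Counts of a route rest on few genes, and no difference between routes was tested. Rab1a, which carries cargo from the ER to the Golgi, read 11.00, 11.15 and 10.95. Its close relative Rab1b read 8.94, 8.96 and 9.06. Both were far above the higher limit on each array and spanned 0.20 and 0.13 log2 units. Rab2a, which acts in traffic between Golgi and ER and in fusion with lysosomes, read 8.94 ± 0.087. Its paralog Rab2b read 6.13, 6.58 and 6.11, and only repeat 2 passed the higher limit. The same kind of split held for the Rab6 pair of Golgi transport. Rab6a was well above both limits, and Rab6b, known as the neuronal form, read 6.01, 5.70 and 5.68, between the limits on all arrays. Rab18, an ER and lipid droplet Rab, read 8.28 ± 0.084. Rab30 of the Golgi read 5.90, 5.42 and 5.88, with repeat 2 lowest. Rab33b, which links the Golgi to autophagy through Atg16l1, read 6.15 ± 0.17, Rab43 5.22 ± 0.094 and Rab19 4.87 ± 0.13, all between the limits.

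All 11 early endosome Rabs passed the lower limit, beside 72.1% of genes. Above both limits were 9 of them, beside 42.1% of genes. The 3 forms of Rab5, the Rab of endocytic vesicle fusion, were all among the 9. Rab5a read 9.74, 9.67 and 9.61. Rab5b read 7.44, 7.85 and 7.75, with repeat 1 lowest, and Rab5c read 8.74 ± 0.094. Rab4a and Rab4b, of the fast route back to the surface, read 7.48 ± 0.094 and 7.52 ± 0.029. Rab14, which works between the Golgi and endosomes, read 9.15 ± 0.11, and Rab21, known for integrin traffic, 8.16 ± 0.16. Rab22a and Rab31, a related pair of endosomal sorting, read 7.64 ± 0.075 and 7.82 ± 0.027. Rab31 had the smallest SD of any Rab gene above the lower limit. The exceptions were Rab17, an epithelial Rab, at 4.80 ± 0.058, and Rab20, known from phagosomes, at 5.35 ± 0.12.

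All 5 Rabs of the recycling endosome passed the lower limit and 3 passed the higher one, beside 72.1% and 42.1% of genes. Rab11a, the main Rab of slow recycling, read 8.09, 8.24 and 8.17. Rab11b read 7.54, 7.63 and 7.44 as the mean of 2 probe sets, which differed. One read 8.83, 9.18 and 8.95, above both limits throughout. The other read 6.25, 6.08 and 5.92, and only its repeat 1 passed the higher limit. The place of Rab11b above both limits thus rests on the first. The annotation names the same gene for both probe sets of Rab11b, Rab2a and Rab5b, and whether one of each pair reads another locus was not tested. Rab35, a Rab of fast recycling and cell division, read 8.60 ± 0.093. Rab25, the epithelial relative of Rab11, read 5.69, 5.44 and 5.93, and Rab15 5.72 ± 0.028, both between the limits. The epithelial markers Cdh1 (10.08 ± 0.23) and Epcam (8.71 ± 0.15) lay above both, as did Krt8 (7.24 ± 0.28), and Krt18 (6.31 ± 0.20) passed the higher limit on 2 arrays.

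Among 7 measured Rabs of late endosomes, lysosomes and related organelles, only Rab7 and Rab34 lay above both limits. Of genes outside the silent families 42.1% did so. Rab9 and Rab9b, of the same route, were not analysed here. Rab7, which drives fusion of late endosomes with lysosomes, read 8.86, 8.80 and 8.87. Rab34, of lysosome positioning and cilium formation, read 7.16 ± 0.11. Rab7b read 4.04, 4.36 and 4.19, under the lower limit on each array. Rab29, a partner of the kinase Lrrk2, read 5.67, 6.01 and 5.92. Rab32 and Rab38, the pair that serves melanosomes, read 5.11, 5.46 and 5.29, and 5.32 ± 0.17. Rab36 read 4.82 ± 0.050. These 4 lay between the limits. Of 7 melanocyte markers measured, 2 passed the lower limit on all arrays and 0 the higher one. Mlana read 5.63 ± 0.26, and Tyr (3.46 ± 0.19), Tyrp1 (3.85 ± 0.066) and Dct (3.62 ± 0.11) were below the lower limit.

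Of 13 Rabs of secretory vesicles and polarised transport, 5 lay above both limits and 5 between them. The other 3 were not above the lower limit on all arrays. Over genes outside the silent families 42.1% lay above the higher limit and 29.9% between the limits. A split of this kind is not particular to this route. Rab10 and Rab8a, which serve delivery to the plasma membrane and the cilium, read 9.51 ± 0.17 and 9.01 ± 0.044. Rab8b read 7.58 ± 0.15, and Rab12, a Rab of receptor degradation, read 8.04, 8.32 and 7.93. The fifth was Rab27a, known for lytic granules, melanosomes and exosomes, at 6.93, 6.83 and 7.34. Its paralog Rab27b read 4.12, 3.94 and 4.10, below the lower limit on each array. The Rab3 family of regulated exocytosis gave little signal. Rab3a, the synaptic vesicle form, read 4.77, 4.70 and 4.75, just over the lower limit on each array, and Rab3b read 5.13, 5.23 and 5.09. Rab3d read 5.48 ± 0.13, and Rab3c read 3.43, 3.10 and 3.49, below the limit throughout. Of 8 neuron markers 7 passed the lower limit and 3 the higher one. Those 3 were Stmn2 (9.99 ± 0.15), Tubb3 (7.17 ± 0.045) and Elavl3 (6.42 ± 0.069). Map2 read 5.80 ± 0.19, Snap25 4.59 ± 0.12 and Syt1 4.88 ± 0.16. Rab13 of tight junctions (5.46 ± 0.087) and Rab26 of secretory granules (5.71 ± 0.16) were between the limits. Rab37, of mast cell granules, read 4.63, 4.81 and 4.90, and repeat 1 was the array that missed the lower limit.

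The last 8 genes hold Rabs of the cilium and autophagy and some little-studied ones. Above both limits were 3 of them, beside 42.1% of genes. Rab23, an inhibitor of Hedgehog signalling, read 7.91, 8.01 and 8.41, with repeat 3 highest. Rab24, of autophagy, read 7.85, 7.69 and 7.88. Rab40c, which carries a SOCS box and joins ubiquitin ligases, read 6.98 ± 0.085, and its relative Rab40b read 5.35 ± 0.082, between the limits. Rab28, a ciliary Rab, read 6.22 ± 0.088, just under the higher limit on each array. Rab44, a large Rab with a calcium-binding region, read 5.33 ± 0.089. Rab39 read 4.11, 3.95 and 4.05, and Rab42 3.87, 3.70 and 3.94, both below the lower limit on every array.

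The repeats were close for most Rab genes. Over the 49 above the lower limit the SD had a median of 0.094 log2 units and a highest value of 0.27. The median over 12841 genes above that limit was 0.101. Among genes above both limits the order was reversed, with medians of 0.0936 over 27 Rab genes and 0.0913 over 7476 genes. Of the 50 Rab genes that entered the limma variance test, 32 (64.0%) had an SD below the trend for their level, against 60.0% of all genes tested. The test, which sets a gene's variance against that trend, called 0 of the 50 with Benjamini-Hochberg adjustment over 13610 genes, of which 0.162% were called. At an unadjusted p under 0.05 it held 2 of the 50, against 5.75% of genes. These were Rab23, with an adjusted p of 0.647, and Rab27a, with 0.778, in that limma fit. These results show neither that Rab23 and Rab27a differed between the repeats nor that the other Rab genes were equal in them.

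**Figure D3:**
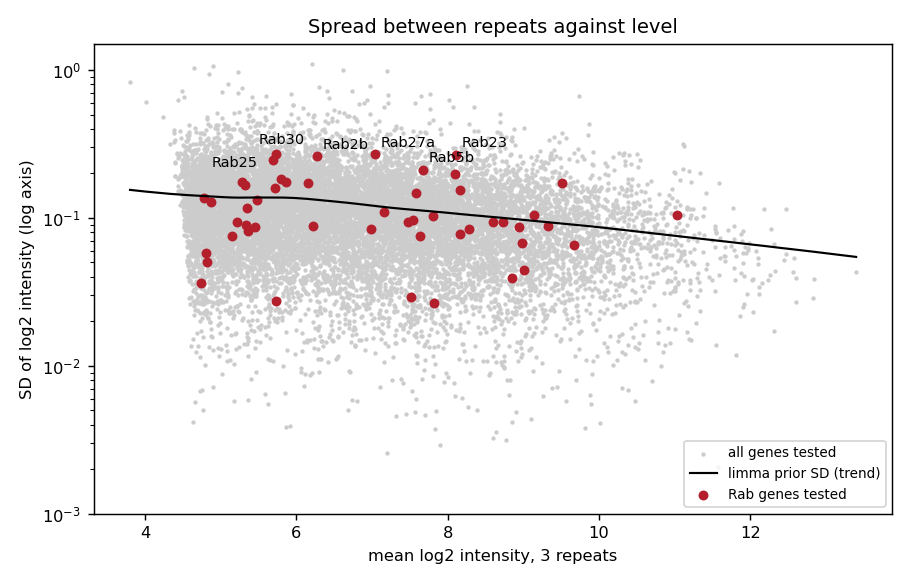
SD of log2 intensity over 3 repeats (vertical, log axis) against mean log2 intensity for all 13610 genes tested (grey), the 50 Rab genes tested (red) and the limma trend (line). Rab27a, Rab30, Rab23 and Rab2b have the largest SDs among Rab genes, 0.26 to 0.27, and 32 Rab genes lie below the line.

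The largest deviations of Rab genes came from different arrays. No Rab gene above the lower limit on at least 1 array had a repeat more than 0.5 log2 units from the mean of the other 2, where 2.92% of genes did. Rab23 and Rab27a were higher in repeat 3, each by 0.46. Rab2b was higher in repeat 2 by 0.46, as was Rab12 by 0.33. Rab30 was lower there, at -0.47. Rab25 was lowest in repeat 2 (-0.38) and highest in repeat 3 (0.37). Repeat 1 stood apart for Rab5b (-0.36), Rab6b (0.32) and Rab29 (-0.29). Rab32 was lowest in repeat 1 (-0.27) and highest in repeat 2 (0.26). Both probe sets of Rab5b gave the lower value in repeat 1, at -0.33 and -0.38. The 2 probe sets of Rab11b went opposite ways there, at -0.23 and 0.24, and cancelled in their mean. The 2 of Rab2a moved together, at -0.14 and -0.16. Over the 49 genes the median deviation was -0.043, 0.050 and 0.0064 in repeats 1, 2 and 3, beside -0.011, 0.0063 and 0.0019 over all genes above the limit. One array against 2 has no test.

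**Figure D4:**
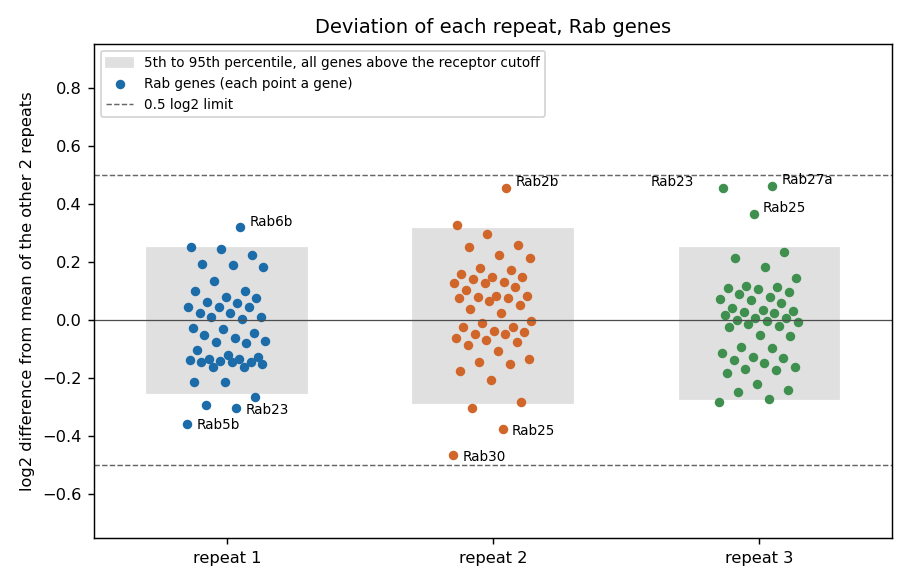
Log2 difference of each repeat from the mean of the other 2 (vertical axis) for the 49 Rab genes above the lower limit on all 3 arrays, with grey bars from the 5th to the 95th percentile of all genes above that limit and dashed lines at 0.5. Rab genes range from -0.47 to 0.46 in repeat 2, from -0.36 to 0.32 in repeat 1 and from -0.28 to 0.46 in repeat 3.

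Of the 11 ES cell markers, 1 had a repeat more than 0.5 log2 units from the mean of the other 2. This was Zfp42, at 11.24, 11.34 and 10.75, with repeat 3 at -0.54. The limma variance test called 0 of the 11. Some genes listed as markers of other cell types also differed between the arrays. Of 17 fibroblast markers 15 lay above the lower limit on all arrays, and their summed intensity was 5325, 7605 and 5443, highest in repeat 2. Without Acta2, Lox, Timp3 and Thbs1, which were listed with their spread known, the other 13 summed to 4249.8, 5114 and 4342. Col1a1 read 8.41, 9.11 and 8.59, Col1a2 8.02, 8.52 and 8.01, Col3a1 7.17, 7.46 and 6.97, and Thy1 7.05, 7.34 and 6.93. The limma variance test called 4 of the 16 tested. These were the same 4 genes, listed with their spread known, so their calls are no independent result. The summed intensity of 8 epithelial markers was 2434, 2089 and 2540, lowest in repeat 2. Cdh1 gave most of that difference, with intensities of 1171, 898 and 1206. Without it the other 7 summed to 1263, 1191 and 1334. Cldn6 (276, 182 and 230), Cldn7 (82.5, 63.7 and 83.1) and Esrp1 (233, 176 and 234) were also lowest in repeat 2. Krt8 and Krt18 were highest in repeat 2. Melanocyte markers summed to 196, 187 and 218. The 9 blood markers summed to 711, 664 and 841, and without Laptm5 the other 8 to 237, 217 and 234, so the high value in repeat 3 was that of Laptm5. Of the blood markers, Laptm5 read 8.98 ± 0.23 and Cd3e 5.50 ± 0.18, while Ptprc, Cd79a (3.52 ± 0.085) and Lyz2 (3.69 ± 0.14) were below the lower limit on all arrays. Rab2b, Rab10 and Rab12 were highest in repeat 2, Rab25 and Rab30 lowest there and Rab27a highest in repeat 3. The part of these markers in those values was not tested. Whether the signal of a listed gene came from the ES cells themselves was not tested either. In bulk RNA, fewer cells of a type and less RNA per cell cannot be told apart.

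The machinery that loads, unloads and reads Rabs was also widely detected. Of 134 measured genes in 4 lists, 126 (94.0%) passed the lower limit on all 3 arrays and 83 (61.9%) the higher one, against 72.1% and 42.1% of genes. The limma variance test called 0 of the 126 tested. Of 13 listed genes of lipid attachment, escort and GDI function 10 were measured, and all 10 passed the lower limit and 8 the higher one on all arrays. Rabggta and Rabggtb, the subunits of the enzyme that adds the lipid, read 7.69 ± 0.17 and 10.29 ± 0.16, and Gdi2, which extracts Rabs from membranes, 10.33 ± 0.10. The escort gene Chml read 6.36 ± 0.17. Rabif, a chaperone of nucleotide-free Rabs, had the largest SD of that list, at 8.27, 8.71 and 8.44, followed by the Golgi protein gene Yipf5 at 8.31 ± 0.18.

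Of 43 exchange factor genes 42 passed the lower limit and 29 the higher one. Rabgef1, which activates Rab5, read 6.98 ± 0.11. Rin1 and Rin2, of the same function, read 5.92 ± 0.13 and 5.74 ± 0.043, between the limits. Trappc1, a subunit of the TRAPP complexes that activate Rab1 and Rab11, had the largest SD, at 7.81, 8.15 and 8.20. Rab3il1 was next, at 4.90 ± 0.19, and Dennd2d (4.03 ± 0.036) was the one gene below the lower limit. Of 35 TBC genes 32 passed the lower limit and 22 the higher one, with Rabgap1 at 8.56 ± 0.073, Rabgap1l at 5.76 ± 0.087 and Evi5, which acts on Rab11, at 7.78 ± 0.11. Tbc1d12 read 5.11, 5.67 and 5.21, and its repeat 2 was 0.504 above the mean of the others, the only pathway gene past 0.5. Tbc1d16 had the next largest SD, at 6.41 ± 0.20. Tbc1d5 (4.19 ± 0.073), Tbc1d21 (3.37 ± 0.047) and Tbc1d30 (4.04 ± 0.16) were below the lower limit. Tbc1d5 is the mean of 2 probe sets that disagreed: one read 5.98 ± 0.037, above the lower limit on all arrays, and the other 2.41 ± 0.12, below it.

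Of 46 effector genes 42 passed the lower limit and 24 the higher one. Eea1 and Rabep1, the Rab5 effectors of endosome fusion, read 6.64 ± 0.17 and 8.05 ± 0.086, and Rabep2 read 6.74 ± 0.14. Gcc2, a Golgi tether, had the largest SD (5.95 ± 0.25), with Osbpl1a, a sterol-binding partner of Rab7, next at 6.94 ± 0.23. The genes below the lower limit were Sytl2 (3.39 ± 0.071), Sytl3 (3.83 ± 0.092) and Sytl5 (3.53 ± 0.083), of the family that tethers Rab27 vesicles, and Lrrk2 (4.18 ± 0.091), the kinase that Rab29 recruits. The 2 probe sets of Lrrk2 disagreed, one at 5.35 ± 0.12, above the lower limit on all arrays, and the other at 3.02 ± 0.14, below it. Mlph and Myrip, which link Rab27a to myosin on melanosomes and granules, read 5.43 ± 0.087 and 4.93 ± 0.092, between the limits. These 2 were chosen for Rab27a after their values were seen. Elsewhere in the effector list, Myo5a (8.34 ± 0.10) and Rph3al (6.38 ± 0.039) were above both limits. Sytl1 (5.68 ± 0.088) and Unc13d (4.90 ± 0.18) were between them.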

How the data were processed

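Labels give 3 biological repeats of 1 line. The authors' deposited values are linear intensities per probe set, from 3.49 to 15203; the submitters' processing notes name GCOS 1.4. How background, normalization and probe set summary were handled is not given in the sources used here, and differences may depend on unknown steps. Intensities were taken to log2 after a floor of 1, which changed 0 values, with no further normalization. Of 26730 probe sets, 20764 had 1 symbol in the platform annotation, 1419 several and 4547 none listed; only the first kind was used, averaged per gene. All 55 members matched RefSeq (GRCm38.p6) by gene identifier, with 0 symbols changed. Rab9, Rab9b, Rab33a and Rab39b were not analysed here.

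The variance test used limma 3.58.1 in R 4.3.3: a gene's variance over its trended, robust prior, with only an intercept fitted, against F with 2 and 9.89 degrees of freedom, adjusted over genes above the lower limit on at least 1 array, at 0.05. It was also run on simulated data with normal noise and variances scattered around a trend, as the test assumes. That run cannot show whether these arrays meet the assumption. A p-value measures how far a gene's variance between these samples exceeds the trended prior for its level. Tables were handled with Python 3.11.15 and pandas 2.3.3. Members, route lists, marker lists and alternatives were chosen with earlier results of these data known. Named with per-array values are genes not above the lower limit, the 10 with the largest SD and the first 2 of each route; of each pathway list, the first 3, the 2 with the largest SD and a minority of 5 or fewer; of each marker list, the first 4 or its callers. Protein features were planned and not analysed here. Alternatives were other cutoffs, normalizations, probe set choices, an offset, test filters and priors, and leaving out each repeat.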

Additional observations from a re-analysis of the deposited data

How the results depend on the processing

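The limits of background decided most. With the other silent families in place of the receptors, 27 of the 55 Rab genes rather than 49 were above background on all 3 arrays, and 83 rather than 126 of the pathway genes. With the 99th percentile of receptor genes the counts were 36 and 106. With the highest probe set of a gene the pathway count was 128, since Lrrk2 and Tbc1d5 then passed. The Rab count was 49 after quantile normalization, median centring or use of the highest probe set, and 50 where 2 arrays sufficed. Leaving out each repeat in turn gave 49 to 50. The limma variance test called 0 Rab genes under all 11 alternatives, with the smallest adjusted p from 0.146 without replicate 2 to 0.969 without the trend. No Rab gene had a repeat past 0.5 log2 units after either normalization, with the highest probe set, with an offset of 16 or with the other silent families as background. The median SD was 0.0941 in the main setting, 0.0936 to 0.106 under normalization, probe set and background alternatives, and 0.0752 to 0.102 when 1 repeat was left out; the lowest was without replicate 1, and the cause was not tested. No paired analysis was possible because the labels give 1 group.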
